A study of Neurospora crassa OR74A with 15 samples.

Results

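Loci of the filamentous fungus Neurospora crassa that carry more than 1 annotated transcript are described here, with the level of each transcript and its share of its locus under 3 carbon conditions. They were found in the transcript-level tables as identifiers that share a locus stem and differ in the number after the letter T. This gave 164 of 9733 loci (1.68%) and 338 of 9907 transcripts. Of these loci, 154 had 2 transcripts and 10 had 3.

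Transcripts of a locus can start or end at different places, or keep a stretch that is spliced out of the others. In filamentous fungi an intron that stays in is a common form of alternative splicing. Where the difference lies in the coding part it can change or truncate the protein, and where it lies ahead of the coding part it can alter how well the message is translated. Known cases in N. crassa are genes of thiamine synthesis, whose splicing depends on a thiamine-sensing element in the message.

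The 9 libraries came from mycelia of the wild-type strain FGSC 2489 in shaken liquid culture in light. After 16 h of growth on 2% sucrose the mycelia were rinsed and spent 4 h in 2% Avicel (microcrystalline cellulose), in medium with no carbon source, or in 2% sucrose, with 3 libraries each. The labels assign these libraries to an earlier study, and replicates are biological ones according to the design text. The other 6 libraries of the series (pectin, orange peel powder and xylan) have gene-level values only and hold no transcript shares.

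Levels are given in the FPKM deposited by the authors, a fragment count per length of transcript and per size of library. The share of a transcript is its FPKM as a percentage of the summed FPKM of its locus. It was measured at the 162 loci with a mean of at least 5 FPKM in every group. NCU05625 and NCU09390 fell below that. In sucrose replicate 1 a share existed at 159 of the 162 loci. The rest had no FPKM there and entered the test with an even ratio of transcripts. The tables do not state the strand, so the ends of a transcript are called left and right by position, on contigs numbered as in the tables and counting from 1.

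Avicel replicate 1 and sucrose replicate 1 stood apart and were the shallowest, with 60.4 and 61.9 megabases of mapped sequence as estimated from coverage and FPKM. The other libraries had 209 to 1052 megabases. The first transcript's share was compared with the mean of the other 2 libraries of its group across 162 loci (159 in sucrose replicate 1). The median deviation was 5.32 percentage points in Avicel replicate 1, and 3.03 and 3.80 points in Avicel replicates 2 and 3. Without carbon it was 2.83, 2.01 and 2.27 points, and on sucrose 7.59, 5.15 and 3.94 points. At NCU03877 transcript T0 made up 0.162% of the locus in sucrose replicate 1 and 99.9% in both other sucrose libraries. At NCU01927 it made up 99.2% in Avicel replicate 1 and 98.4% in sucrose replicate 1, against 27.5% to 40.2% in the other 7 libraries. Both loci were chosen for this after their values were seen. The counts of shifted loci are given without these libraries as well.

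**Figure D1:**
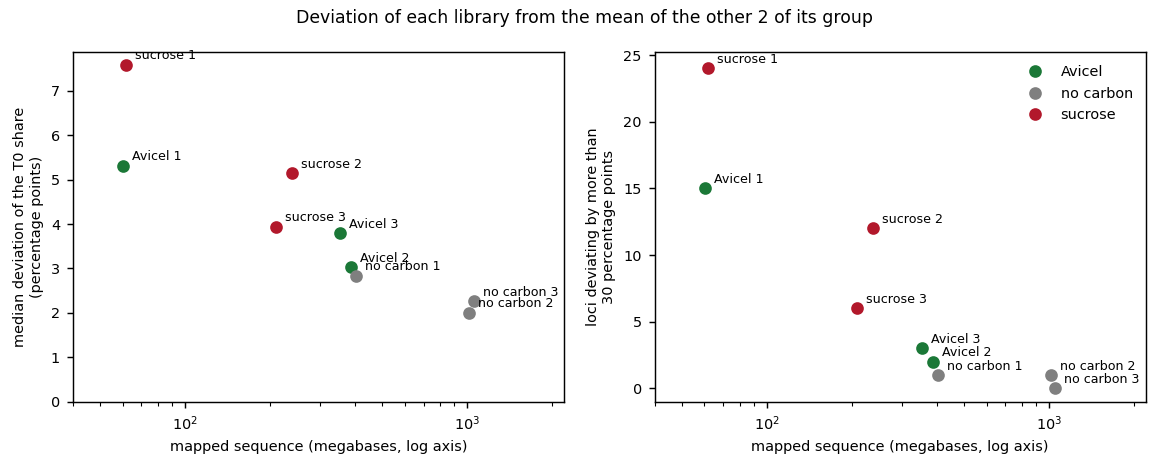
Deviation of each library from the mean of the other 2 of its group against its mapped sequence in megabases (log axis). The left panel plots the median deviation of the T0 share over up to 162 loci in percentage points and the right panel the number of loci deviating by more than 30 points. Sucrose replicate 1 (7.59 points, 24 loci) and Avicel replicate 1 (5.32 points, 15 loci) lie at the shallow end.

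Transcripts of a locus differed in their ends, their splicing or both. Among the 154 pairs, 50 differed at the left end alone, 43 at the right end alone and 15 at both. The ends were the same in 46 pairs, so that those transcripts differ only in what is spliced out. In these 46 the lengths differed by a median of 76.0 bases (4 to 642), by a multiple of 3 in 24 and not in 22. Over all 154 pairs the median length difference was 78.5 bases. The transcript numbered T1 was the longer one in 90 pairs and T0 in 63. In the RefSeq gene table of assembly NC12, 159 of the 164 loci were found, and 158 of these also had more than 1 RefSeq transcript. Of the 9056 loci with 1 transcript found there, 713 (7.87%) had more than 1. Another locus overlapped 26 of the 164 (15.9%), against 881 of all 9733 (9.05%), and how the authors' software divided reads there is not stated.

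The loci were expressed at high levels. Their median summed FPKM, as the mean of the 9 libraries, was 718, against 103 in the 9569 loci with 1 transcript. None of 6 carbon regulator genes, 18 cellulose and xylan degradation genes, 4 secretory pathway genes or 7 clock and light genes that were looked up was among the 164. Of 3 thiamine genes looked up, nmt-1 (NCU09345) and NCU06110 were members.

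At most loci 1 transcript made up the bulk. The most abundant transcript of a locus had a median share of 79.7% on Avicel, 84.2% without carbon and 81.2% on sucrose. It exceeded 90% at 54, 62 and 51 of the 162 loci in these groups. The transcript numbered T0 was the most abundant at 89, 91 and 92 loci. The longer transcript of a pair was the more abundant one in 56, 56 and 57 of 151 pairs. At 138 loci the same transcript led in all 3 groups by mean FPKM, and at 24 it did not. The range of mean share at the 24 ran from 2.08 points (NCU01145) to 49.3 points (NCU11942). A change of lead was not itself tested. The share of the first transcript had a median SD over replicates of 3.80 points on Avicel, 2.37 without carbon and 5.85 on sucrose. It had an SD above 10 points at 39, 9 and 57 loci.

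Avicel was compared with no carbon first, and no locus passed the test. limma on the log2 ratio of a transcript to the rest of its locus, with Benjamini-Hochberg adjustment over 182 shares, called 0 of 162 loci at an adjusted p below 0.05 and a difference of at least 10 points (0.00% of shares called), and 8 loci had an unadjusted p below 0.05. Shares of 35 (19.2%) did not overlap between the groups. The median absolute difference of mean share was 3.55 points. The 95% interval had a median half-width of 1.47 log2 units and lay within 1 unit of 0 for 22 shares (12.1%), and for the other shares it reached past 1 unit. With library weights estimated by limma, 2 loci were called. The smallest adjusted p was 0.585.

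Both groups were then compared with sucrose. Transcript use on sucrose differed from that on Avicel at 14 of 162 loci and from that without carbon at 16. Per share this is 7.69% called in the first comparison and 8.79% in the second. The share of the first transcript was higher on Avicel at 11 of the 14 and higher without carbon at 12 of the 16. The comparisons use the same sucrose libraries, so they are not independent, and their values are given side by side. At an adjusted p below 0.05 whatever the size of the difference there were 20 and 19 loci, and at an unadjusted p below 0.05 there were 40 and 48. The 20 include aac (NCU09477), whose T0 shares differed by -0.00200 points, and NCU01258, by 0.00991 points (limma adjusted p = 0.00189 and 0.0436). At such loci the 1 FPKM added to both sides weighs on the ratio. These counts are thus not all shifts of transcript use. Shares of 48 (26.4%) and 69 (37.9%) did not overlap between the groups compared. For 37 of the 182 shares the sucrose libraries lay apart from all 6 others. Separate groups were a condition for naming the called loci with the largest share differences. Their separation, given below, is thus no added support.

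The sucrose libraries also stood apart in 6 genes looked up as markers of conidia and aerial hyphae. These were eas, con-10, con-6, con-8, ccg-1 and fl. Their summed FPKM was 92973 to 158449 on Avicel and 345545 to 384146 without carbon, against 528 to 1776 on sucrose. The highest median in each group was that of ccg-1, with 135310 FPKM on Avicel, 255469 without carbon and 1327 on sucrose. The gene fl differed least, with medians of 81.2, 198 and 36.0 FPKM in the same groups. con-10 was listed at 0 in 2 of the 3 sucrose libraries, and con-6 and con-8 in 1. Whether these values reflect conidia and aerial hyphae or a change of these genes within mycelia was not tested. Any part of such cells in the share differences was not tested either. In bulk samples fewer cells of a type and less RNA per cell cannot be told apart.

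The count of shifted loci depended on single libraries. Without Avicel replicate 1 and sucrose replicate 1 it was 23 for Avicel against sucrose, 13 of the 14 among them, and 37 for no carbon against sucrose, 15 of the 16 among them. Without Avicel replicate 2 it was 6 and 10. For Avicel against sucrose it was 9 without sucrose replicate 3. For no carbon against sucrose it was 8 without no carbon replicate 3 and 25 without sucrose replicate 1. For Avicel against sucrose NCU03297, NCU08227, NCU11369, NCU02404, pex11 (NCU04802) and nuo21.3c (NCU05009) kept the call in each of 24 alternatives. For no carbon against sucrose these 6 did so too, along with NCU02547 and tca-16 (NCU06211).

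**Figure D2:**
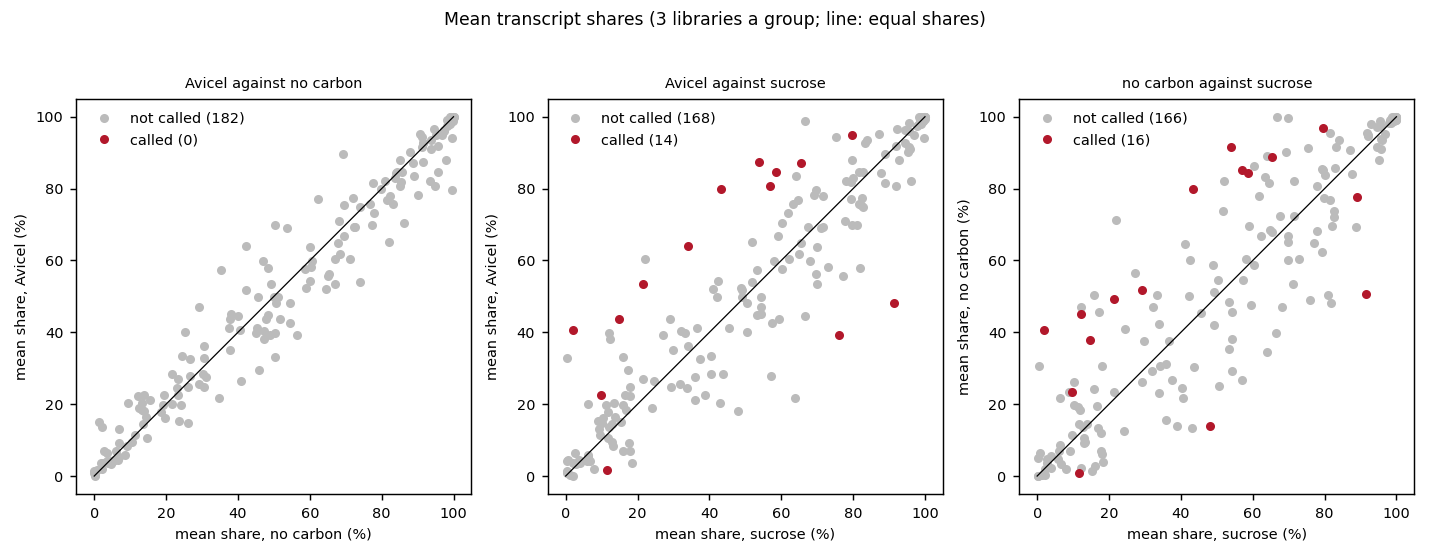
Mean share of a transcript (3 libraries a group, in %) in one group against the other, for 182 shares in 3 comparisons, with called shares in red and the line of equal shares. Avicel and no carbon have 0 called shares, while 14 and 16 called shares lie off the line in the comparisons with sucrose.

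NCU03297 (contig 10.1, positions 5221902 to 5224245), which has no symbol in the RefSeq table, used mainly 1 transcript on sucrose and both elsewhere. Its T0 (2130 bases) ends 158 bases to the left of T1 (2078 bases) and has 56 bases spliced out, against 266 in T1. The share of T0 was 32.2%, 41.3% and 48.3% on Avicel, 38.7%, 33.6% and 49.8% without carbon, and 3.40%, 1.03% and 1.47% on sucrose. All 3 sucrose libraries lay far below all 6 others. T1 had 605, 164 and 124 FPKM on Avicel, 209.8, 134 and 150.1 FPKM without carbon, and 3266, 2126 and 2330 FPKM on sucrose, while T0 had 287, 115 and 115 FPKM on Avicel, 133, 67.6 and 149 FPKM without carbon, and 115, 22.1 and 34.8 FPKM on sucrose. T1 was thus the transcript that was high on sucrose. In level T0 was called higher on Avicel than on sucrose, although its lowest Avicel values and its highest sucrose value met. The log2 ratio of T0 to T1 was higher than on sucrose by 5.23 (SE 0.52) on Avicel (limma adjusted p = 0.00155) and by 5.24 (SE 0.52) without carbon (adjusted p = 0.00111).

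NCU08227 (contig 10.3, positions 4697020 to 4698563), also without a symbol, moved the other way. Its transcripts share both ends, and T1 (1374 bases) has 135 fewer bases spliced out than T0 (1239 bases), a multiple of 3. T1 made up 37.2%, 62.5% and 56.2% of the locus on Avicel, 34.3%, 60.3% and 53.8% without carbon, and 8.39%, 9.19% and 8.12% on sucrose. This longer form was a minor one in every sucrose library and made up 34.3% to 62.5% elsewhere. T0 had 72.6, 32.1 and 41.3 FPKM on Avicel, 85.0, 37.3 and 62.5 FPKM without carbon, and 239, 172 and 134 FPKM on sucrose. T1 had 43.0, 53.3 and 53.0 FPKM on Avicel, 44.4, 56.6 and 72.9 FPKM without carbon, and 21.9, 17.4 and 11.8 FPKM on sucrose. Neither transcript overlapped between sucrose and the other groups, and they lay on opposite sides. The log2 ratio of T0 to T1 differed from sucrose by -3.45 (SE 0.52) on Avicel (limma adjusted p = 0.00486) and by -3.30 (SE 0.52) without carbon (adjusted p = 0.00608).

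NCU11369 (contig 10.4, positions 2252124 to 2253901) has transcripts with the same ends, of which T1 (1502 bases) has 77 fewer bases spliced out than T0 (1425 bases), not a multiple of 3. T1 made up 13.7%, 13.2% and 10.9% on Avicel, 8.68%, 9.76% and 6.94% without carbon, and 54.5%, 39.2% and 44.6% on sucrose. Here the longer form had its higher shares on sucrose, in contrast to NCU08227, although T0 kept the larger mean share there (53.9%). T0 had 1402, 1678 and 1747 FPKM on Avicel, 2011, 1989 and 2303 FPKM without carbon, and 653, 792 and 639 FPKM on sucrose. T1 had 223, 255 and 213 FPKM on Avicel, 191, 215 and 172 FPKM without carbon, and 783, 509.8 and 513 FPKM on sucrose. Both transcripts were apart from sucrose in every library, in opposite directions. The log2 ratio of T0 to T1 was higher than on sucrose by 2.57 (SE 0.33) on Avicel (limma adjusted p = 0.00282) and by 3.21 (SE 0.33) without carbon (adjusted p = 0.00111).

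NCU02404 (contig 10.7) has transcripts that differ at the left end. T1 starts at position 1634929 and T0 at 1636720, and both end at 1639785. T0 made up 79.6%, 79.9% and 79.9% on Avicel, 75.2%, 80.1% and 84.2% without carbon, and 48.1%, 40.7% and 41.0% on sucrose. T1 had 277, 307 and 303 FPKM on Avicel, 327, 436 and 301 FPKM without carbon, and 1257, 999.9 and 986 FPKM on sucrose. The transcript with the far left end was the higher one on sucrose, and T0, with 1169 ± 77.4 FPKM on Avicel, 1453 ± 408 FPKM without carbon and 846 ± 277 FPKM on sucrose (SD, n = 3), was not called in level. The log2 ratio of T0 to T1 was higher than on sucrose by 2.37 (SE 0.31) on Avicel (limma adjusted p = 0.00282) and by 2.40 (SE 0.31) without carbon (adjusted p = 0.00262).

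**Figure D3:**
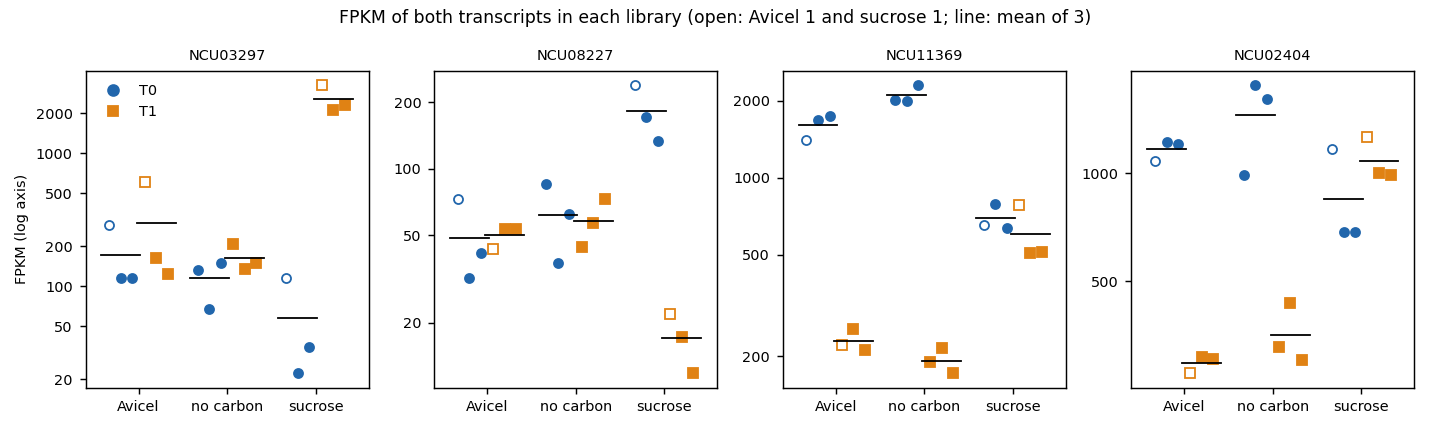
FPKM (log axis) of transcripts T0 and T1 of 4 loci in each library, with open symbols for Avicel replicate 1 and sucrose replicate 1 and lines at the mean of 3. At NCU03297 T1 reaches 2126 to 3266 on sucrose, at NCU08227 T1 lies at 11.8 to 21.9 there, and at NCU11369 both transcripts lie on opposite sides of their levels elsewhere.

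pex11 (contig 10.6, positions 877350 to 878747), which encodes a protein of peroxisome division, has a T0 that ends 50 bases to the left of T1. T0 made up 46.7%, 40.7% and 43.4% on Avicel, 39.9%, 37.3% and 36.3% without carbon, and 10.8%, 17.2% and 16.6% on sucrose. All 3 sucrose libraries lay below all others. Its FPKM was 203, 302 and 359 on Avicel, 468, 523 and 471 without carbon, and 23.3, 39.5 and 32.4 on sucrose, while T1 had 379.7 ± 129 FPKM on Avicel, 804 ± 90.8 FPKM without carbon and 182 ± 16.2 FPKM on sucrose (SD, n = 3). Both transcripts were thus lowest on sucrose, T0 more so. The log2 ratio was higher than on sucrose by 2.14 (SE 0.30) on Avicel (limma adjusted p = 0.00416) and by 1.79 (SE 0.30) without carbon (adjusted p = 0.00761).

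nuo21.3c (contig 10.6, positions 4097935 to 4099797) encodes a subunit of mitochondrial complex I. Its T1 (1457 bases) is 218 bases longer than T0 (1239 bases) with left ends 6 bases apart. T1 made up 16.5%, 16.5% and 13.5% on Avicel, 16.0%, 18.1% and 12.9% without carbon, and 46.0%, 41.0% and 37.2% on sucrose. All 3 sucrose libraries were above the other 6. T1 had 161 ± 18.5 FPKM on Avicel, 177 ± 38.2 FPKM without carbon and 518 ± 60.9 FPKM on sucrose, and T0 had 881 ± 128, 945 ± 18.0 and 732 ± 49.0 FPKM in the same groups (SD, n = 3). T1 was called lower than on sucrose in both comparisons, and T0 was not called in level in either. The log2 ratio of T0 to T1 was higher than on sucrose by 1.94 (SE 0.30) on Avicel (limma adjusted p = 0.00486) and by 1.93 (SE 0.30) without carbon (adjusted p = 0.00584).

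cox-6 (contig 10.5, positions 4305646 to 4307277), a subunit of mitochondrial cytochrome c oxidase, shifted the other way. T0 made up 20.7%, 48.2% and 48.6% on Avicel, 54.3%, 43.1% and 49.4% without carbon, and 68.2%, 79.3% and 80.6% on sucrose. All 3 sucrose libraries lay above the rest, and Avicel replicate 1 lay below its own group. T0 had 335, 860.4 and 871 FPKM on Avicel and 2243, 2785 and 3496 FPKM on sucrose. T1 had 1044 ± 211 FPKM on Avicel and 871 ± 163 FPKM on sucrose (SD, n = 3) and was not called. The shift passed against sucrose for Avicel (-36.9 points, limma adjusted p = 0.0292) and not for no carbon (-27.1 points, adjusted p = 0.0882). The Avicel call was lost without Avicel replicate 2, no carbon replicate 1 or 3, or sucrose replicate 2 or 3 (limma adjusted p of 0.0607, 0.0513, 0.0617, 0.0829 and 0.0930).

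tom7 (contig 10.5, positions 5120444 to 5121400), a part of the channel that brings proteins into mitochondria, has transcripts with the same ends, of which T0 keeps 55 bases more. T0 made up 29.4%, 50.0% and 39.7% on Avicel, 32.8%, 55.6% and 47.0% without carbon, and 4.18%, 19.7% and 12.7% on sucrose. All 3 sucrose libraries lay below the other 6, although the spread within each group was wide. T1 had 323, 235 and 246 FPKM without carbon and 1355, 1902 and 1905 FPKM on sucrose, while T0 had 158, 294 and 218 FPKM without carbon and 59.1, 465 and 278 FPKM on sucrose. The shift passed for no carbon against sucrose (32.9 points, limma adjusted p = 0.0347) and not for Avicel against sucrose (27.5 points, adjusted p = 0.0583). The no carbon call was lost without any 1 of 6 libraries (Avicel replicate 2 or 3, any no carbon replicate or sucrose replicate 3), with adjusted p up to 0.128.

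tca-16 (NCU06211), named for the tricarboxylic acid cycle, and NCU02547 shifted toward T0 in both comparisons. The T0 share of tca-16 was 76.9%, 82.9% and 82.5% on Avicel, 83.2%, 86.2% and 86.3% without carbon, and 54.4%, 60.4% and 56.0% on sucrose. T0 of tca-16 had 4861 ± 994 FPKM on Avicel, 4633 ± 402 FPKM without carbon and 1317 ± 188 FPKM on sucrose, whereas T1 had 1133 ± 69.6, 802 ± 94.6 and 1006 ± 240.2 FPKM (SD, n = 3). T0 was called higher in both comparisons and T1 was not called. At NCU02547 the T0 share was 83.3%, 88.3% and 89.7% on Avicel, 86.6%, 90.4% and 89.0% without carbon, and 62.0%, 64.8% and 69.8% on sucrose. Their no carbon calls (limma adjusted p = 0.00443 and 0.00608) held without each library, and the Avicel calls (0.0109 and 0.0105) were lost without Avicel replicate 2 (0.0612 and 0.0607) and, for tca-16, without Avicel replicate 3 (0.0506).

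ylo-1 (NCU04013), which encodes the enzyme of the last step to the orange carotenoid neurosporaxanthin, had T0 shares of 56.7%, 52.1% and 51.7% on Avicel, 39.1%, 56.0% and 52.7% without carbon, and 28.3%, 14.5% and 21.5% on sucrose. All 3 sucrose libraries lay below the other 6. Its T0 ends 323 bases to the left of T1. The shift was 32.1 points for Avicel (limma adjusted p = 0.0134) and 27.8 points for no carbon (adjusted p = 0.0243). The Avicel call was lost without Avicel replicate 2 or sucrose replicate 3 (limma adjusted p of 0.0607 and 0.0517). The no carbon call was lost without Avicel replicate 2, no carbon replicate 2 or 3, or sucrose replicate 2 or 3, with adjusted p up to 0.102, and with the replicate block (0.0537).

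hpt-1 (NCU01489), a phosphotransfer protein of osmotic signalling with 3 transcripts, had a T0 share of 23.9%, 21.6% and 22.3% on Avicel, 22.3%, 24.3% and 23.2% without carbon, and 12.2%, 7.12% and 10.1% on sucrose. Its differences from sucrose were 12.8 points on Avicel (limma adjusted p = 0.0165) and 13.5 points without carbon (adjusted p = 0.0140). The Avicel call was lost without Avicel replicate 2 or 3 or sucrose replicate 3 (0.0652, 0.0565 and 0.0529), and the no carbon call without no carbon replicate 2 or 3 (0.0672 and 0.0651).

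NCU08949, also with 3 transcripts, had a T0 share of 3.28%, 0.806% and 0.584% on Avicel, 0.753%, 0.805% and 0.576% without carbon, and 12.1%, 4.75% and 18.0% on sucrose. This long and minor form was apart from the other groups in every sucrose library, with differences of -10.1 points on Avicel (limma adjusted p = 0.0279) and -10.9 points without carbon (adjusted p = 0.0111). The whole locus was far lower on sucrose, with 326 ± 214 FPKM there, 10328 ± 5097 FPKM on Avicel and 17709 ± 3237 FPKM without carbon (SD, n = 3). The Avicel call was lost without any 1 of Avicel replicates 2 and 3, no carbon replicates 1 and 3 and sucrose replicates 1 and 3 (adjusted p up to 0.103). The no carbon call was lost without no carbon replicate 3 (0.0571), and without sucrose replicate 3, which left a difference of -7.71 points.

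NCU05574 was weakly expressed on sucrose. The whole locus had 358, 464 and 609 FPKM on Avicel, 58.0, 62.7 and 109.8 FPKM without carbon, and 6.79, 14.1 and 14.1 FPKM on sucrose. T0 made up 95.8%, 93.4% and 95.1% on Avicel, 99.6%, 94.8% and 95.8% without carbon, and 65.1%, 90.1% and 83.7% on sucrose. Its differences from sucrose were 15.1 points on Avicel (limma adjusted p = 0.0436) and 17.1 points without carbon (adjusted p = 0.0243). The Avicel call was lost without any 1 library other than no carbon replicate 1 and sucrose replicate 2 (adjusted p up to 0.127; without sucrose replicate 1 the difference was 7.86 points), with the replicate block (0.107), and with a pseudocount of 0.1 (0.270). The no carbon call was lost without any 1 of Avicel replicate 2, no carbon replicates 1 and 3 and sucrose replicates 1 and 3 (adjusted p up to 0.0727; without sucrose replicate 1 the difference was 9.81 points) and with the replicate block (0.0599).

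NCU03749 had a T0 share of 58.0%, 66.3% and 68.1% on Avicel, 36.4%, 42.8% and 47.7% without carbon, and 47.9%, 30.4% and 23.7% on sucrose. Avicel stood above both other groups. The difference from sucrose was 30.1 points on Avicel (limma adjusted p = 0.0352) and 8.30 points without carbon (adjusted p = 0.444), and Avicel differed from no carbon by 21.8 points (adjusted p = 0.847). The Avicel call was lost without any 1 library other than Avicel replicate 1 and sucrose replicate 1 (adjusted p up to 0.126) and with the replicate block (0.0812).

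For no carbon against sucrose, pef-1 (NCU02738), NCU08388 and gh63-1 (NCU03657), named for a family of glycoside hydrolases, were called. T0 of pef-1 made up 51.7 ± 2.71% without carbon and 29.1 ± 6.63% on sucrose, T0 of NCU08388 13.9 ± 3.08% without carbon and 48.0 ± 17.8% on sucrose, and T0 of gh63-1 77.6 ± 0.828% without carbon and 89.0 ± 2.11% on sucrose (SD, n = 3). The limma adjusted p was 0.0243, 0.0243 and 0.0311, and for Avicel against sucrose 0.128, 0.0574 and 0.131. Leaving out Avicel replicate 2 or any no carbon replicate ended each of these 3 calls. Leaving out sucrose replicate 3 ended those of pef-1 and gh63-1, and leaving out Avicel replicate 3 or sucrose replicate 2 that of gh63-1. The adjusted p was then at most 0.106 for pef-1, 0.111 for NCU08388 and 0.113 for gh63-1. The replicate block also ended the gh63-1 call (limma adjusted p = 0.0596).

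**Figure D4:**
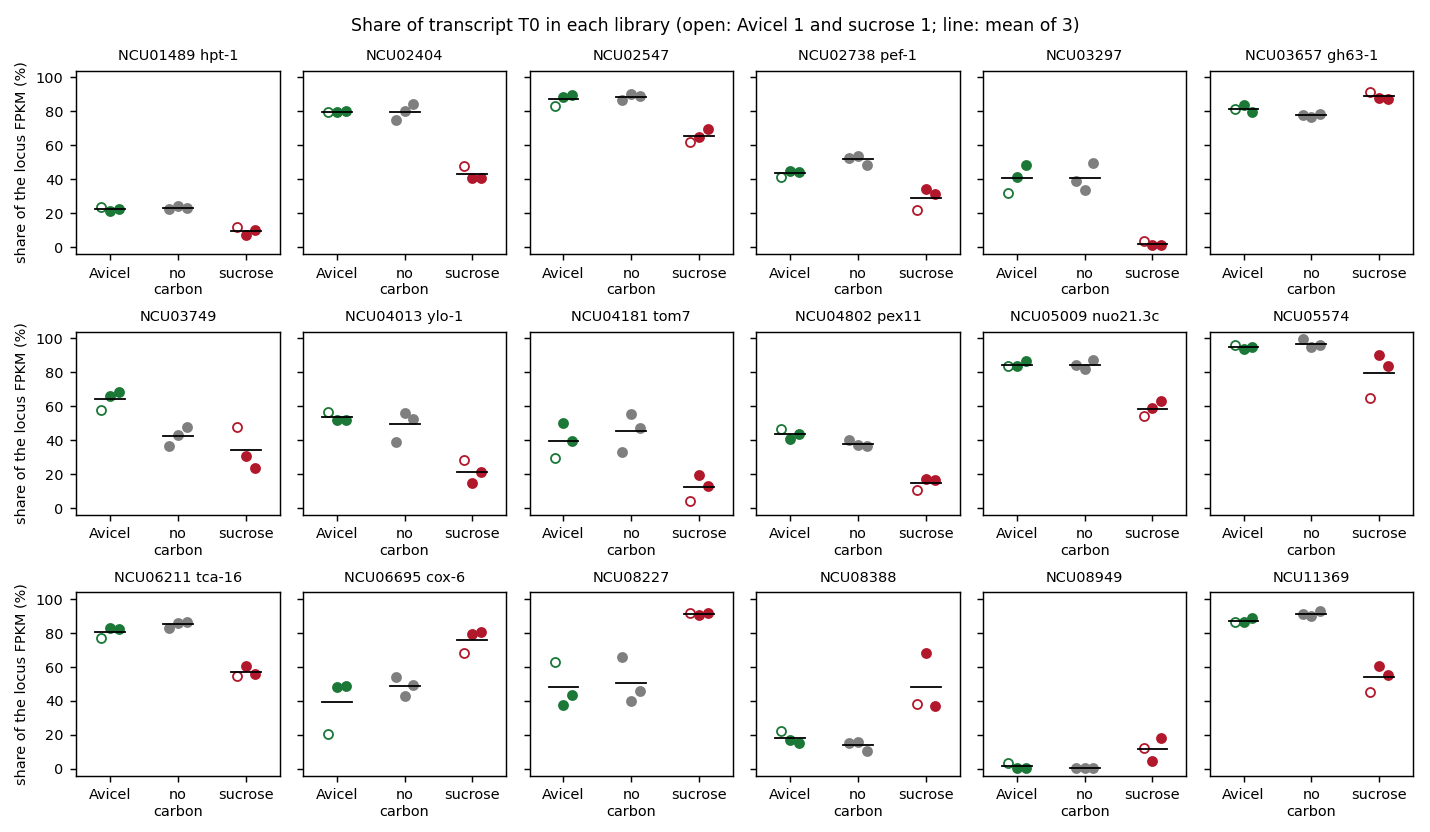
Share of transcript T0 of its locus (in %) in each library at the 18 loci called in a comparison with sucrose, by group, with open circles for Avicel replicate 1 and sucrose replicate 1 and lines at the mean of 3. The sucrose points lie apart from the Avicel and no carbon points at NCU11369 (45.5% to 60.8% on sucrose) and NCU02404 (40.7% to 48.1% on sucrose), among others.

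The called loci did not share 1 kind of structure. For Avicel against sucrose, 2 of 45 tested pairs with the same ends were called, 6 of 49 that differ at the left end, 3 of 43 at the right end, 1 of 15 at both, and 2 of the 10 loci with 3 transcripts. For no carbon against sucrose the counts were 4, 5, 4, 1 and 2. The longer transcript had the lower share on sucrose in 4 of 12 called pairs and in 6 of 14. Among the 151 tested pairs it had the lower share on sucrose in 85 for the first comparison and in 78 for the second. The median summed FPKM of the called loci was 1136 for Avicel against sucrose and 916 for no carbon against sucrose, against 736 over the tested loci.

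Changes of the leading transcript were largest at NCU11942, NCU08227, NCU06206, cox-6 and NCU02404, the 5 of the 24 loci with the widest range of mean shares. At NCU11942, listed as NCU11913 in the gene-level tables, T0 made up 47.4%, 67.6% and 66.6% on Avicel, 71.4%, 68.5% and 73.8% without carbon, and 1.03%, 32.3% and 32.6% on sucrose. These groups did not overlap, and sucrose replicate 1 was far below both other sucrose libraries. The differences from sucrose, 38.5 points for Avicel (limma adjusted p = 0.170) and 49.3 for no carbon (adjusted p = 0.0871), did not pass. At NCU06206, where T1 keeps the 78 bases spliced out of T0, T0 made up 0.962%, 34.6% and 29.7% on Avicel, 36.6%, 37.6% and 29.8% without carbon, and 64.6%, 56.3% and 70.7% on sucrose. Its shifts of -42.1 and -29.2 points did not pass either (adjusted p = 0.138 and 0.388), and Avicel replicate 1 alone was near 0.

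The level of each transcript was tested over all 8862 transcripts with a mean of at least 1 FPKM, of which 333 belonged to these loci. For Avicel against no carbon limma called 10 of the 333, 8 higher and 2 lower on Avicel, against 4.36% of all transcripts, 3.28% higher and 1.07% lower. The 10 became 5 without Avicel replicate 2, no carbon replicate 1 or no carbon replicate 3, 6 without sucrose replicate 3, and 6 with the replicate block. The counts against sucrose were 139 for Avicel (72 higher, 67 lower; 41.7%) and 142 for no carbon (78 higher, 64 lower; 42.6%). Over all transcripts 45.7% were called on Avicel, 27.7% higher and 18.0% lower, and 50.6% without carbon, 33.0% higher and 17.6% lower. The median log2 fold change of the members was -0.11, 0.06 and 0.07 in the 3 comparisons, and that of all transcripts -0.15, 0.24 and 0.37. Quantile scaling of the libraries put the medians of all transcripts at -0.09, -0.07 and -0.04, and the higher calls then made up 48.5% and 50.6% of all calls against sucrose, where they had made up 60.7% and 65.1%. Among the members this share was 51.8% and 54.9% as deposited and 47.4% and 49.7% with quantile scaling, so that lower calls then outnumbered higher ones (65 higher and 72 lower on Avicel, 74 higher and 75 lower without carbon), and the median of the members for Avicel against sucrose was -0.07. Upper-quartile scaling moved these values the other way. It put the medians of all transcripts against sucrose at 0.47 and 0.62, the share of higher calls at 67.7% and 71.3% over all transcripts, and that among the members at 59.6% and 60.7%.

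Both transcripts of gst-3 (NCU01320), named for glutathione S-transferase, were higher on Avicel than without carbon. T1 had 432, 401 and 561 FPKM on Avicel and 46.6, 38.7 and 66.1 FPKM without carbon, and T0 had 769, 414 and 612 FPKM on Avicel and 95.4, 74.7 and 107 FPKM without carbon. The groups were far apart, with log2 fold changes of 3.20 (SE 0.32) for T1 and 2.65 (SE 0.27) for T0 (limma adjusted p = 0.000591 and 0.000631). T1 of NCU10383, listed as NCU08411 in the gene-level tables, had 2783, 1582 and 1815 FPKM on Avicel and 289.9, 310.3 and 283 FPKM without carbon (log2 fold change 2.76, SE 0.23; adjusted p = 0.000229). T0 of this locus was not called, with 2134, 120.0 and 85.2 FPKM on Avicel, the first from the shallow library, and 34.3, 82.4 and 25.6 FPKM without carbon.

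T1 of NCU05574 was higher on Avicel, with 14.9, 30.4 and 29.8 FPKM against 0.218, 3.25 and 4.59 FPKM without carbon (log2 fold change 3.02, SE 0.58; limma adjusted p = 0.0193). Its T0 was higher as well, with a log2 fold change of 2.61 (SE 0.41; adjusted p = 0.00698). The T1 call was lost without Avicel replicate 2 or 3 (limma adjusted p of 0.0805 and 0.0818). The lower calls were T1 of NCU01258, with 1.31 ± 2.05 FPKM on Avicel and 13.7 ± 7.51 FPKM without carbon, and T1 of pex11, with 379.7 ± 129 FPKM on Avicel and 804 ± 90.8 FPKM without carbon (SD, n = 3). The NCU01258 call was lost without any 1 library other than Avicel replicate 3 and sucrose replicate 1 (limma adjusted p up to 0.142), and the pex11 call without any 1 other than Avicel replicate 3 (up to 0.143; without Avicel replicate 1 the log2 fold change was -0.82). With the replicate block both calls were lost as well (0.0529 and 0.0590). Both transcripts of NCU01200 and T0 of NCU07413 made up the rest of the 10 calls.

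Among the members with the largest changes in level against sucrose was NCU10040, which had 21568, 27779 and 29110 FPKM of T0 on Avicel, 12983, 30121 and 33872 FPKM without carbon, and 163, 392 and 213 FPKM on sucrose. Its T1, a minor form, had 109.9, 151 and 174 FPKM on Avicel, 212, 141 and 180.4 FPKM without carbon, and at most 0.0362 FPKM in the sucrose libraries. T0 was higher than on sucrose by 6.75 (SE 0.44) on Avicel and by 6.62 (SE 0.44) without carbon on the log2(FPKM + 1) scale (limma adjusted p = 4.63e-06 and 5.27e-06). T1 of NCU08949 was higher by 6.56 (SE 1.43) and 8.12 (SE 1.43), with 1098, 4291 and 4148 FPKM on Avicel, 5411, 9062 and 10233 FPKM without carbon, and 106, 116 and 0.861 FPKM on sucrose (adjusted p = 0.00405 and 0.00116).

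Among the members lower than on sucrose was arg-2 (NCU07732), the small subunit of the carbamoyl phosphate synthetase of arginine synthesis. Its T1 had 222, 79.3 and 79.1 FPKM on Avicel, 97.7, 53.7 and 84.0 FPKM without carbon, and 2795, 4538 and 4058 FPKM on sucrose. The 3 sucrose libraries were more than an order of magnitude higher. The log2 fold changes were -5.04 (SE 0.42) on Avicel and -5.59 (SE 0.42) without carbon (limma adjusted p = 1.78e-05 and 9.62e-06). T0 of arg-2, which has 76 fewer bases spliced out than T1, made up 4.49 ± 4.42% on Avicel, 6.54 ± 2.86% without carbon and 0.679 ± 0.488% on sucrose (SD, n = 3). T0 of NCU08389 differed from sucrose by -4.57 on Avicel and -4.70 without carbon (limma adjusted p = 0.000483 and 0.000387), with 3063, 632 and 682 FPKM on Avicel, 1942, 619.7 and 845 FPKM without carbon, and 15123, 31189 and 37630 FPKM on sucrose. T0 of NCU05032 had 881, 5.08 and 12.9 FPKM on Avicel, 19.5, 15.3 and 13.2 FPKM without carbon, and 2821, 1332 and 1347 FPKM on sucrose, and Avicel replicate 1 stood far above its group. The log2 fold changes were -5.35 (SE 1.54) on Avicel and -6.68 (SE 1.54) without carbon (limma adjusted p = 0.0159 and 0.00497). The Avicel call of NCU05032 was lost without Avicel replicate 2 or 3 (limma adjusted p of 0.0514 and 0.0553).

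Many loci had some but not all of their transcripts called in level, which is not a test of a difference between those transcripts. The share test, which compares transcripts within a locus, called 14 and 16 loci against sucrose. For Avicel against sucrose all transcripts were called in 1 direction at 38 loci, some but not all at 50, and none at 70. For no carbon against sucrose these counts were 36, 59 and 64, and for Avicel against no carbon 3, 4 and 157. A locus with only 1 transcript tested is left out of these counts where that transcript was called. Transcripts called in opposite directions were found at NCU03297, NCU08227 and NCU11369 for Avicel against sucrose, at NCU08227 and NCU11369 for no carbon against sucrose, and at 0 loci for Avicel against no carbon. With upper-quartile scaling the same 3 loci had opposite calls for Avicel against sucrose, and NCU02404 and NCU03297 joined NCU08227 and NCU11369 for no carbon against sucrose. With quantile scaling NCU11369 alone had them for Avicel against sucrose, and for no carbon against sucrose NCU11369, NCU01296, NCU02404, NCU05574 and NCU10007 did, without NCU08227. At NCU11369 the log2 fold changes on Avicel were 1.21 (SE 0.16) for T0 and -1.36 (SE 0.20) for T1 (limma adjusted p = 0.000268 and 0.000420), and without carbon 1.60 (SE 0.16) and -1.61 (SE 0.20) (adjusted p = 5.11e-05 and 0.000145).

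The 6 most highly expressed members with a symbol differed in transcript use. aac (NCU09477), the ADP/ATP carrier of mitochondria, and adh-1 (NCU01754), an alcohol dehydrogenase, were read almost entirely as T0, with a T1 below 1 FPKM in every library. T0 of aac had 12497, 4690 and 4591 FPKM on Avicel, 5388, 8975 and 5842 FPKM without carbon, and 68191, 67286 and 75624 FPKM on sucrose. The ribosomal protein genes crp-7 (NCU08627) and po (NCU07408) had T1 as the main form, at 77.3 ± 7.68% and 95.7 ± 2.77% on Avicel, 80.4 ± 1.25% and 94.9 ± 3.40% without carbon, and 83.4 ± 6.30% and 99.7 ± 0.0682% on sucrose (SD, n = 3). The longer T0 of po had 44.8, 55.8 and 48.1 FPKM on Avicel, 48.2, 74.0 and 52.5 FPKM without carbon, and 43.0, 124 and 99.7 FPKM on sucrose, and was not called in level (limma adjusted p = 0.137 and 0.273). T1 of po, with 1769 ± 1592 FPKM on Avicel, 1333 ± 659 FPKM without carbon and 31369 ± 9956 FPKM on sucrose, was lower than on sucrose in both comparisons (adjusted p = 0.000302 and 0.000230). The ratio of T0 to T1 was higher than on sucrose (adjusted p = 0.0157 and 0.0111), but the share of T0 differed by only 4.01 and 4.87 points, under the minimum for a call.

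emp-7 (NCU10042), the enolase of glycolysis, spread widely within groups. T0 made up 90.2%, 29.0% and 22.0% on Avicel, 24.8%, 28.1% and 34.7% without carbon, and 98.3%, 23.4% and 41.4% on sucrose. Avicel replicate 1 and sucrose replicate 1 were high and the other 7 libraries lay between 22.0% and 41.4%. No shift was called at this locus (limma adjusted p = 0.755 for Avicel and 0.441 for no carbon against sucrose).

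Of the 3 thiamine genes looked up, both members have 3 transcripts. NCU06110 (contig 10.7, positions 2488602 to 2490589), the most highly expressed of the 164 loci, had T2 shares of 66.5%, 60.8% and 46.3% on Avicel, 28.3%, 76.1% and 40.4% without carbon, and 87.8%, 77.4% and 80.2% on sucrose. Its longer T0 made up 32.6%, 32.3% and 49.3% on Avicel, 68.9%, 16.9% and 55.5% without carbon, and 10.9%, 11.8% and 14.3% on sucrose. For T0 the sucrose libraries lay below all 6 others, and no carbon replicate 2 was close to them. The differences of T0 from sucrose, 25.8 points for Avicel and 34.8 for no carbon, did not pass (limma adjusted p = 0.187 and 0.0905).

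The T2 form of NCU06110 led in all 3 groups by mean FPKM, with its highest shares on sucrose. T2 had 17090, 11270 and 6157 FPKM on Avicel, 1770, 22991 and 4559 FPKM without carbon, and 89564, 34861 and 26508 FPKM on sucrose. T0 had 8370, 5987 and 6560 FPKM on Avicel, 4311, 5107 and 6266 FPKM without carbon, and 11089, 5300 and 4719 FPKM on sucrose. T0 thus overlapped across all 3 groups, whereas T2 on sucrose was above every other library. T2 was lower than on sucrose without carbon (log2 fold change -2.93, SE 0.91; limma adjusted p = 0.0197) and was not called on Avicel (-2.04, SE 0.91; adjusted p = 0.0820).

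nmt-1 (contig 10.2, positions 4177719 to 4179566), which encodes an enzyme of the pyrimidine part of thiamine, had T2 shares of 56.5%, 80.4% and 72.9% on Avicel, 25.6%, 75.1% and 50.3% without carbon, and 94.2%, 77.1% and 71.6% on sucrose. These groups overlapped, and no share of nmt-1 was called, with intervals for T2 of -3.36 to 1.18 log2 units for Avicel against sucrose and -4.61 to -0.08 for no carbon against sucrose. T2 had 2799, 2887 and 1164 FPKM on Avicel, 319.6, 7383 and 1289 FPKM without carbon, and 47201, 20674 and 14244 FPKM on sucrose. As at NCU06110, no carbon replicate 2 had the highest share and level of T2 in its group and replicate 1 the lowest. thi-4 (NCU07849), the gene that the RefSeq table gives this symbol, had a T0 share of 91.1 ± 3.64% on Avicel, 93.8 ± 1.18% without carbon and 95.8 ± 0.181% on sucrose (SD, n = 3).

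**Figure D5:**
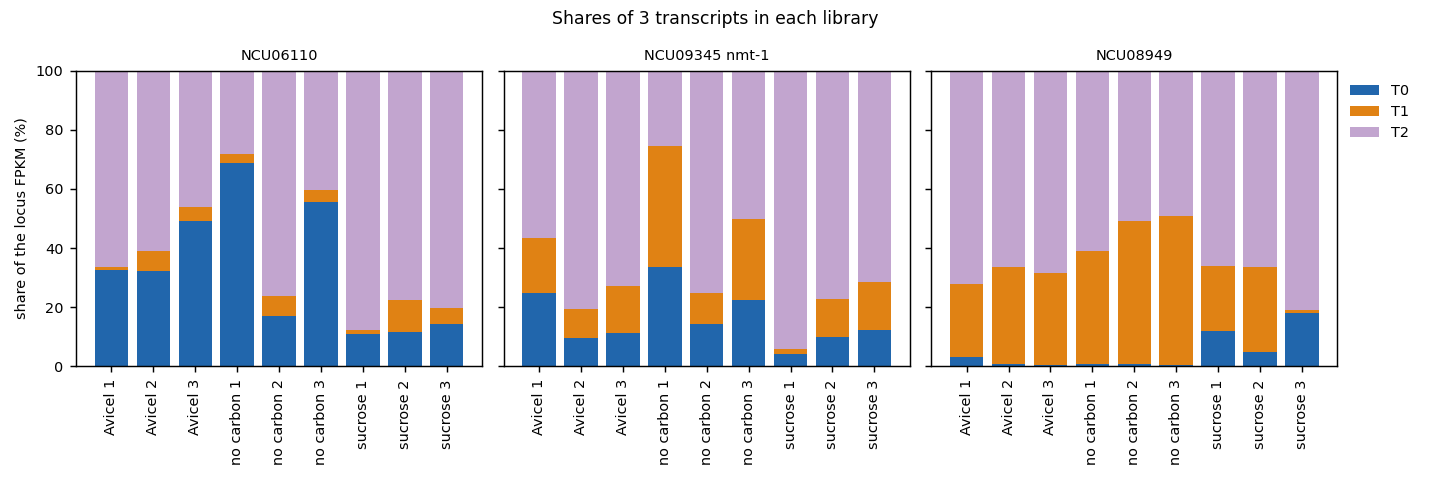
Shares (in %) of transcripts T0, T1 and T2 in each of 9 libraries at NCU06110, nmt-1 (NCU09345) and NCU08949, as stacked bars. The T2 share of NCU06110 runs from 28.3% to 76.1% between no carbon libraries and lies between 77.4% and 87.8% on sucrose.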

How the data were processed

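Per the labels' protocols, mRNA caught on oligo dT beads was broken up and primed at random for the cDNA. Tools given in the submitters' processing notes are TopHat 1.2.0, Cuffdiff and Cufflinks 0.9.3. As to build and gene models, neither is stated (not given in the sources used here). FPKM were deposited by the authors, per transcript for 9 libraries and per gene for 6. The 9 tables also hold a coverage signal, from which mapped megabases were derived as its ratio to FPKM, and a fraction, per the file headers, used in 1 alternative. FPKM are model estimates that divide reads between overlapping transcripts, so shares carry the error of that division, and depth in reads is unknown. The 11 members with another identifier in the gene-level tables were joined by position, and symbols came from the RefSeq table.

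limma 3.58.1 in R 4.3.3 was fitted with an intensity trend over all 3 groups (6 residual degrees of freedom; 1.88 prior for shares and 2.61 for levels). Shares were tested as log2((FPKM + 1)/(rest of the locus + 1)), 1 share for pairs and 3 for loci with 3 transcripts, and called at adjusted p below 0.05 and 10 points. Levels were tested as log2(FPKM + 1) and called at adjusted p below 0.05 and a log2 fold change of 1, a scale that understates changes of low transcripts. Tests were two-sided, and the code was tested on simulated data. p-values measure the spread between these libraries.

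Named loci were, in each comparison, up to 8 called loci with the largest share difference and separate groups and up to 3 transcripts each way with the largest change in level, plus the 6 highest members with a symbol, members of the lists looked up, 3 loci with the most transcripts and 5 loci whose leading transcript changes. Other loci named were chosen after their values were seen. The members and lists were chosen with earlier results of these data known. Replicate numbers of Avicel and sucrose libraries go together in the share deviations (correlations of 0.602, 0.522 and 0.464 for numbers 1, 2 and 3). This pairing is not stated in the labels, and numbers 2 and 3 are not told apart by it, since Avicel replicate 3 correlated with sucrose replicate 2 at 0.485 and Avicel replicate 2 with sucrose replicate 3 at 0.381. Alternatives were other pseudocounts, filters, thresholds and scalings, the arcsine scale, no trend, library weights, 2 groups alone, the replicate block and leaving out libraries. The share of fragments and leaving out overlapping loci were added after seeing the data.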

Additional observations from a re-analysis of the deposited data

How the results depend on the processing

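None of the named shares and levels reversed its direction in the alternatives run. With quantile scaling the balance of called members against sucrose turned, to 65 higher and 72 lower on Avicel (72 and 67 as deposited) and 74 higher and 75 lower without carbon (78 and 64). Shifted loci for Avicel against no carbon numbered 0, and 2 with library weights. For Avicel against sucrose the 14 loci became 28 with library weights, 6 with these groups alone and 23 without Avicel replicate 1 and sucrose replicate 1, and 6 to 18 when each library was left out. For no carbon against sucrose the 16 became 34, 10 and 37 under the same alternatives, and 8 to 25 when each library was left out. Transcripts called for Avicel against no carbon numbered 10, 6 with the replicate block, and 5 to 11 when each library was left out, with 5 without Avicel replicate 2, no carbon replicate 1 or no carbon replicate 3. With the replicate block 14 loci (12 of the same) and 15 loci (13 of the same) shifted against sucrose. Same-numbered libraries of the other pairs of groups did not deviate together throughout (correlations from -0.26 to 0.41 for shares). For the named shares 614 results in alternatives kept their call and 102 lost it, and for named levels 289 kept it and 34 lost it. The shallow libraries, Avicel replicate 1 and sucrose replicate 1, deviated by a median of 5.32 and 7.59 points from their groups. Sucrose replicate 2, at 238 megabases, deviated by 5.15. The part of depth in these deviations was not tested. The cause of the changes in counts was not tested.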

Other observations

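The gene for actin, act (NCU04173), chosen after its values were seen, is a member. Its T0, the longer transcript, made up 31.3%, 33.4% and 33.1% on Avicel, 30.1%, 25.8% and 24.2% without carbon, and 31.9%, 38.9% and 41.8% on sucrose. T0 thus had its lowest shares without carbon, but no shift was called at this locus in any comparison. The limma adjusted p was 0.947 for Avicel against no carbon and 0.618 for Avicel against sucrose.

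Locus totals in the gene-level libraries stand beside those of the 9 libraries without a test, since the tables were made and normalized separately. NCU03297 had 386, 519 and 680 FPKM on pectin, 784 and 679 FPKM on orange peel powder and 372 FPKM on xylan, beside means of 470 FPKM on Avicel, 281 FPKM without carbon and 2631 FPKM on sucrose. NCU06206 had 1178 to 1474 FPKM on pectin and 1332 and 1437 FPKM on orange peel powder, and 209 FPKM on xylan, beside means of 327, 232 and 205 FPKM on Avicel, without carbon and on sucrose.

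In loci with 1 transcript and no overlap, the deposited upper confidence limits equalled the FPKM plus 2 times its square root, within 1%. This held for 100% of 6424 to 7999 transcripts in each of the 9 libraries. The lower limits were not checked. The same rule held at 60.4 and at 1052 megabases, and so the intervals were not used as errors here.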
